A study of Mus musculus with 25 samples.

Results

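Pou5f1, Sox2, Nanog, Sall4, Phc1, Dnmt3b and Lin28a are genes of the pluripotent state, and crosslinks of SRSF7 to their transcripts in mouse P19 cells are described here. They were chosen by name, with their crosslink events per library in these data known, so their levels are given as a description and were not tested. For each gene, crosslink events on its own strand were summed over 1 fixed interval of mouse genome build mm9. The 7 intervals held 64565 of the 25560891 events that 25 libraries had on the standard chromosomes, and events of all libraries together lay in 505035 windows of 5000 nt. Only the placement of events inside a gene, relative to the rest of the same gene, was tested, in the stretches that had enough events.

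P19 is an embryonal carcinoma line, and its cells are kept undifferentiated in ordinary serum medium. SRSF7 is a serine/arginine-rich splicing protein that binds RNA with an RNA recognition motif and a zinc knuckle. In iCLIP, UV light links protein to RNA in cells, the protein is pulled down, and each cDNA end marks 1 crosslinked nucleotide. Anti-GFP libraries were made from cells labelled SRSF7mutZn-GFP (mutZn, 2 libraries), SRSF7D27aa-GFP (D27aa, 2) and SRSF7-GFP OE (WT, 3), and 1 library of each was prepared without UV. Antibody to SRSF7 itself was used on cells of genotype WT (endo_WT, 1 library) and on cells labelled SRSF7-GFP OE, where the titles name the products endo_OE (2), GFP_OE (2) and RRM_OE (2); the controls of this series were 1 library with no UV and 1 with no antibody. The piCLIP libraries came from polysomal (poly_IP, 2) and monosomal (mono_IP, 2) fractions of cells labelled SRSF7-GFP OE, with 1 library titled IgG for each fraction. Neither the promoter of the tagged constructs nor the number of clones is stated, and no library of cells without SRSF7 was analysed here.

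The UV anti-GFP libraries held between 221746 events (WT 2) and 11782376 events (mutZn 3). Levels were expressed per 1000000 events on the standard chromosomes (CPM), so that 1 event was worth 4.51 CPM in WT 2 and 0.253 CPM in WT 4. The design text of the series states biological replicates, while the file headers give WT 3 and WT 4 the same run and the same replicate number. mutZn 4 and D27aa 2 have that run and number too. WT 2 and D27aa 1 share a different run and number, and mutZn 3 shares neither with another UV anti-GFP library. Replicate numbers used here are those of the titles, which differ from the headers for several libraries. WT 2 stood apart from WT 3 and WT 4 in which nucleotides it shared with other libraries, as given at the end, and results that turn on it are given without it. RNA abundance was not measured, so more transcript and more crosslinking per transcript cannot be told apart in any level below.

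In pluripotent cells POU5F1 (Oct4) and SOX2 bind DNA side by side and, with NANOG, maintain a circuit of transcription factors that activates its own genes. SALL4 is a zinc-finger factor that joins this circuit. PHC1 is a subunit of a Polycomb complex that keeps developmental genes silent, DNMT3B methylates DNA anew at the exit from the naive state, and LIN28A is an RNA-binding protein that blocks maturation of let-7 microRNAs.

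The intervals, each on the strand of its gene, were chr17:35642001-35648500 for Pou5f1, chr3:34548001-34552000 for Sox2, chr6:122657001-122665500 for Nanog and chr2:153473001-153515000 for Dnmt3b, all on the plus strand. On the minus strand they were chr6:122265001-122295000 for Phc1, chr2:168573001-168594000 for Sall4 and chr4:133557001-133577000 for Lin28a. Each was longer than the gene in RefSeq, by 1355 nt for Nanog and by 7503 nt for Phc1. In the 7 UV anti-GFP libraries together, the opposite strand of these intervals held 1.42% of the events of both strands.

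Events stayed within the genes in most cases. Over the 7 UV anti-GFP libraries, Phc1 averaged 27.8 CPM per kb in its interval, against 0.189 and 0.0307 CPM per kb in the 5000 nt on either side. Lin28a was the exception, with 7.50 CPM per kb in its interval and 5.07 CPM per kb in the 5000 nt past its downstream end, and RefSeq lists Dhdds nearby on the same strand. Events near the downstream end of Lin28a may therefore belong to either gene. RefSeq also lists the noncoding gene Sox2ot over Sox2 and Gm14261 over Sall4 on its other strand. Copies of Pou5f1 and Nanog exist elsewhere in the mouse genome, and the treatment of reads that fit several places is not stated.

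Among the transcription factors, Pou5f1 was the only gene with lower values in both mutZn libraries than in every library of the other groups. It had 58.8 and 58.9 CPM in mutZn 3 and 4, 79.7 and 74.7 CPM in D27aa 1 and 2, and 67.7, 100.1 and 96.97 CPM in WT 2, 3 and 4. The mutZn mean was 0.667 of the WT mean (log2 ratio -0.59 with an SD of 0.31 from the spread of both groups). The D27aa libraries fell inside the WT range, whose lower end was WT 2 with 15 events. Without WT 2 both lay below WT, with a log2 ratio of -0.35 for D27aa over WT.

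Sox2, the partner of Pou5f1, was high in mutZn. Its values were 115.2 and 122.0 CPM in mutZn 3 and 4, 69.1 and 61.8 CPM in D27aa 1 and 2, and 85.8, 75.6 and 70.6 CPM in WT 2, 3 and 4. Both mutZn libraries lay above all others, with a mean 1.53 times that of WT. Both D27aa libraries lay just under the lowest WT library, and 69.1 CPM in D27aa 1 rested on 26 events.

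Nanog gave the fewest events of the 7 genes. It had 16.7 and 14.6 CPM in mutZn 3 and 4, 7.97 and 5.15 CPM in D27aa 1 and 2, and 9.03, 2.73 and 5.32 CPM in WT 2, 3 and 4. The mutZn libraries were highest, but D27aa rested on 3 and 2 events and WT 2 and WT 3 on 2 and 3, so that the order of D27aa and WT is not resolved at this depth.

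Sall4 showed the widest gap between groups. It had 151.4 and 157.0 CPM in mutZn 3 and 4, 95.6 and 100.4 CPM in D27aa 1 and 2, and 49.7, 24.6 and 15.2 CPM in WT 2, 3 and 4. No library of 1 group overlapped another group. The mean was 5.17 times that of WT in mutZn and 3.29 times in D27aa, on log2 ratios of 2.37 (SD 0.86) and 1.72 (SD 0.86). WT 2, with 11 events, was the highest WT library, and without it the log2 ratios were 2.96 for mutZn and 2.30 for D27aa.

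**Figure D1:**
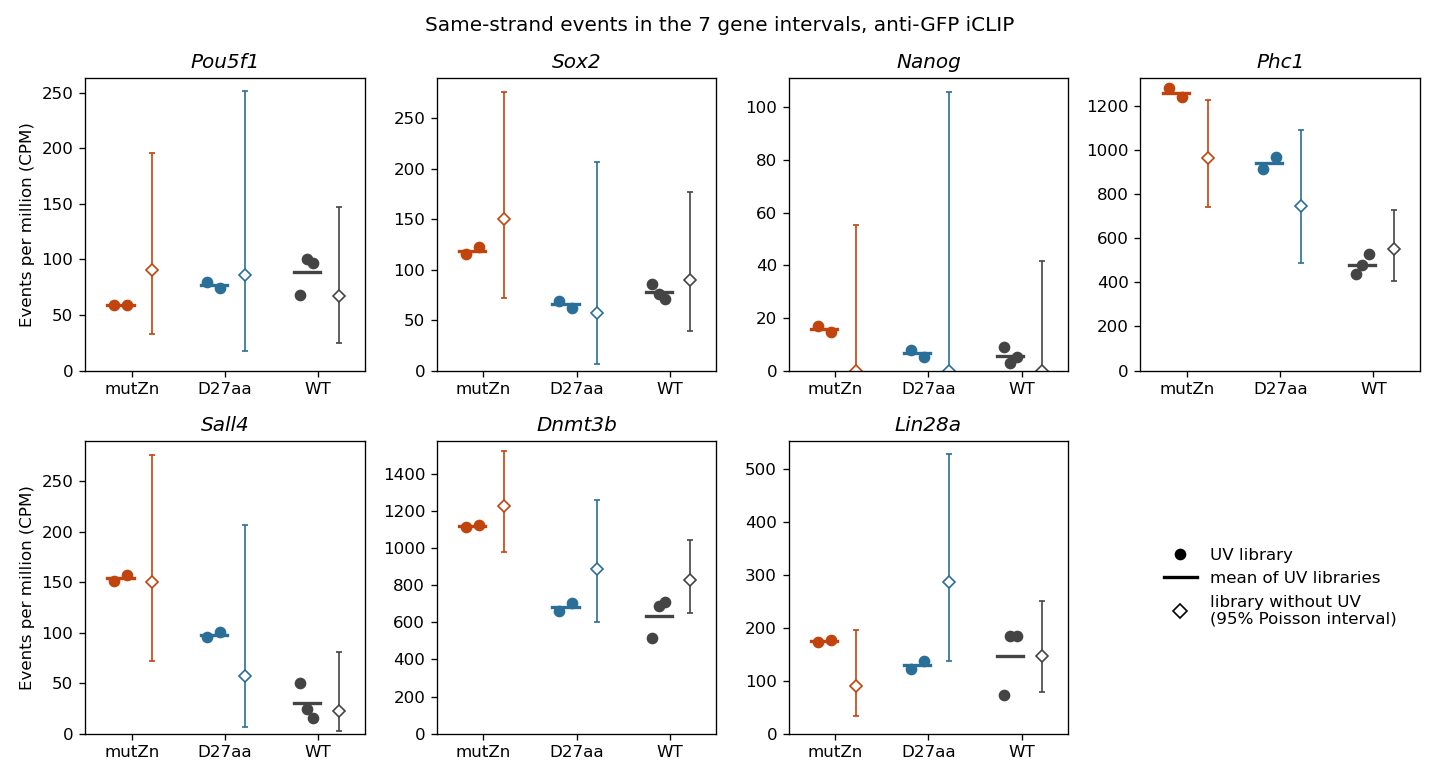
Level of each gene in the anti-GFP libraries, in events per 1000000 (CPM) on the y axis (linear, from 0), for mutZn, D27aa and WT. Filled points are UV libraries (2, 2 and 3) and bars their means, and open diamonds are the single libraries without UV with 95% Poisson intervals. Phc1 and Sall4 descend from mutZn through D27aa to WT, while Pou5f1 is lowest in mutZn.

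The 2 chromatin genes had the highest levels. Phc1, the Polycomb subunit, had 1279 and 1237 CPM in mutZn 3 and 4, 913.6 and 968.0 CPM in D27aa 1 and 2, and 437.9, 476.1 and 526.1 CPM in WT 2, 3 and 4. The groups did not overlap, and the spread inside each was small beside the gaps. Mean levels were 2.62 times that of WT in mutZn (log2 ratio 1.39, SD 0.14) and 1.96 times in D27aa (0.97, SD 0.15).

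Dnmt3b, the DNA methyltransferase, had 1116 and 1128 CPM in mutZn 3 and 4, 661.3 and 705.4 CPM in D27aa 1 and 2, and 514.6, 686.4 and 709.5 CPM in WT 2, 3 and 4. Only mutZn stood clear, at 1.76 times the WT mean (log2 ratio 0.82, SD 0.26). D27aa lay within the WT range, with a mean ratio of 1.07.

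Lin28a, which encodes the RNA-binding let-7 inhibitor, overlapped between WT and both other groups, and this turned on WT 2 with its 16 events. It had 173.2 and 177.1 CPM in mutZn 3 and 4, 122.2 and 136.5 CPM in D27aa 1 and 2, and 72.2, 184.8 and 184.6 CPM in WT 2, 3 and 4. WT 2 lay under all other libraries and WT 3 and WT 4 above them. Without WT 2 both groups lay below WT: the log2 ratio was -0.08 for mutZn over WT, where it was 0.25 with WT 2, and -0.51 for D27aa over WT.

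Taking the 3 pairs of groups side by side, all mutZn libraries lay above all WT libraries for 5 genes (Sox2, Nanog, Sall4, Phc1 and Dnmt3b) and below them for 1 (Pou5f1). Of 26471 windows of 5000 nt across the genome, 21.5% were higher in this way and 16.3% lower. D27aa lay above WT for 2 genes (Phc1 and Sall4) and below it for 1 (Sox2), against 11.8% and 17.9% of windows. mutZn lay above D27aa for 6 genes and below it for Pou5f1, against 34.1% and 19.7% of windows. Without WT 2, mutZn lay above WT for 5 genes and below it for 2, against 32.1% and 28.5% of windows, and D27aa lay above WT for 2 and below it for 3, against 18.7% and 29.3% of windows. With windows of 20000 nt, nearer to the length of the longer genes, the shares higher and lower were 23.9% and 14.6% for mutZn against WT, 12.3% and 17.8% for D27aa against WT, and 36.6% and 18.3% for mutZn against D27aa. The genes were picked with these levels in view, so the counts are not set against the windows as a test. The 2 are also unlike in depth, and groups separate more readily where events are many. Windows entered at a mean of 9.10 CPM over the 7 UV anti-GFP libraries. There Nanog averaged 8.79 CPM and the other genes 76.7 CPM (Pou5f1) to 834 CPM (Phc1). The median log2 ratio over the 7 genes was 0.82 for mutZn over WT, 0.10 for D27aa over WT and 0.65 for mutZn over D27aa, and over all windows it was 0.03, -0.08 and 0.12. The 3 comparisons share libraries, so they are not independent of each other.

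**Figure D2:**
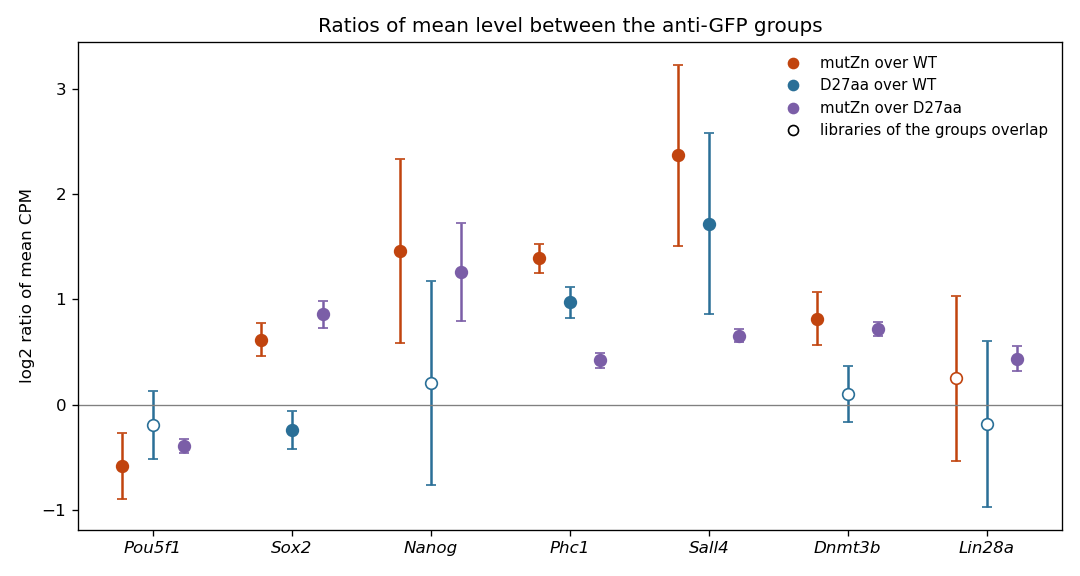
The y axis gives the log2 ratio of mean CPM for each gene in 3 comparisons, and bars are the SD of the ratio from the spread of both groups. Filled points mark groups whose libraries did not overlap and open points those that did. Sall4 reaches 2.37 for mutZn over WT, and Pou5f1 is the only gene below 0 for mutZn over D27aa.

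The scale of the libraries set some of these directions. Scaling by a trimmed mean of log ratios in place of the total moved the log2 ratios of mutZn over D27aa by 0.49 to 0.50, those of mutZn over WT by 0.25 to 0.45 and those of D27aa over WT by -0.24 to -0.05. Under this scaling the ratio of Pou5f1 for mutZn over D27aa became 0.10, where it was -0.39 by totals. Relative to the other 6 genes Pou5f1 kept the lowest ratio in this comparison. Counting each crosslinked position a single time turned the Phc1 ratio of mutZn over D27aa to -0.27, where it was 0.42 by events. Phc1 had 15063 events on 7007 positions in mutZn 3, and 344 events on 315 positions in D27aa 1. A single count thus takes more from deep libraries, and the part of depth in this turn was not tested.

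Per kb of interval, the order of the genes also differed between groups. In mutZn it ran Phc1 (41.9 ± 0.99 CPM per kb, SD, n = 2), Sox2 (29.7 ± 1.2), Dnmt3b (26.7 ± 0.20), Pou5f1 (9.05 ± 0.016), Lin28a (8.76 ± 0.14), Sall4 (7.34 ± 0.19) and Nanog (1.84 ± 0.18). In D27aa, Phc1 was first with 31.4 ± 1.3 CPM per kb (SD, n = 2), followed by Sox2 and Dnmt3b, whose ranges overlapped, then Pou5f1, Lin28a, Sall4 and Nanog. In WT, Sox2 led with 19.3 ± 1.9 CPM per kb (SD, n = 3) in front of Phc1 with 16.0 ± 1.5. The ranges of Phc1, Dnmt3b and Pou5f1 overlapped each other in WT, and Sall4 (1.42 ± 0.85) and Nanog (0.67 ± 0.37) were last, with overlapping ranges. The intervals include some sequence outside the genes, which is counted in these densities.

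Inside Phc1, crosslinks of mutZn and WT differed in placement at some stretches, though no call held under every alternative. Each interval was divided into bins of 500 nt, and the use of a bin relative to the other bins of the same gene was compared in 1 limma fit of the 7 UV anti-GFP libraries with Benjamini-Hochberg adjustment over 4550 bins of 1377 regions. Of the 264 bins of the 7 genes, 65 had enough events to be tested: 27 in Dnmt3b, 26 in Phc1, 4 each in Pou5f1, Sox2 and Lin28a, and none in Nanog and Sall4. At an adjusted p threshold of 0.05, 20 of the 65 bins differed between mutZn and WT, 11 with more use in mutZn and 9 with less. Over all bins tested, 23.4% differed (36.6% at an unadjusted p under 0.05). A bin was tested if its mean over the 7 libraries reached 9.10 CPM, and 4 of the 11 bins higher in mutZn had a WT mean under this level. In 2 of these the D27aa mean was under it too, so that they were tested only through the group in which they are higher, and the counts of bins are no support for a direction. By gene, 11 of 26 bins differed in Phc1, 8 of 27 in Dnmt3b and 1 of 4 in Sox2, and none did in Pou5f1 or Lin28a, where no bin had an unadjusted p under 0.05 either.

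The largest change in Phc1 was near its upstream end. The bin chr6:122290001-122290500 rose 1.33 ± 0.19 on the log2 scale (SE; limma adjusted p = 7.76e-08). It held 6.96% and 6.88% of the events in tested bins in mutZn 3 and 4, 6.84% and 2.48% in D27aa 1 and 2, and 1.16%, 2.70% and 3.07% in WT 2, 3 and 4. D27aa 1 thus resembled mutZn at this bin and D27aa 2 resembled WT. Further downstream, chr6:122272501-122273000 rose 1.09 ± 0.19 (adjusted p = 9.75e-06 in the limma fit), and chr6:122271001-122271500 fell by 1.03 ± 0.17 (adjusted p = 1.75e-06 in the limma fit).

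Bins past the threshold lay side by side in 4 stretches of Phc1. In the 1 kb that starts 5.5 kb from the upstream end, where use was higher in mutZn (1 of its 2 bins had a WT mean under the filter), mutZn 3 and 4 had 9.16% and 9.44% of the gene's events, D27aa 1 and 2 had 4.07% and 5.85%, and WT 2, 3 and 4 had 3.09%, 3.63% and 6.54%. In the stretch from 25 to 26.5 kb, where use was lower in mutZn, mutZn had 8.58% and 8.04%, D27aa had 11.05% and 13.8%, and WT had 20.6%, 13.6% and 15.2%. No mutZn library reached the range of the other 2 groups at either place. From 21.5 to 22.5 kb, where use was higher, mutZn had 12.6% and 12.5%, D27aa had 8.14% and 6.38%, and WT had 6.19%, 7.27% and 6.79%. From 23 to 24 kb, where use was lower, the groups overlapped: mutZn had 3.94% and 3.98%, D27aa had 3.20% and 4.52%, and WT had 3.09%, 7.84% and 6.40%. These stretches were picked after the bins had been tested and serve as a description.

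Over the whole gene, the upstream 50% of the Phc1 interval held 42.4% and 43.0% of events in mutZn 3 and 4, 39.8% and 34.8% in D27aa 1 and 2, and 36.1%, 34.2% and 36.1% in WT 2, 3 and 4. The mean distance from the upstream end was 16.4 ± 0.087 kb in mutZn, 17.4 ± 0.54 kb in D27aa and 18.1 ± 0.30 kb in WT (SD, n = 2, 2 and 3). In the UV anti-GFP libraries pooled, bins with at least 0.5% of the gene's events ran from 4 kb to 27.5 kb into the interval, a stretch of 23500 nt, close in length to the 22497 nt of the gene in RefSeq. Between 9 and 10 of the 60 bins held 50% of the events in each group. The strongest bin was at 21.5 kb in mutZn and at 19 kb in D27aa and WT.

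**Figure D3:**
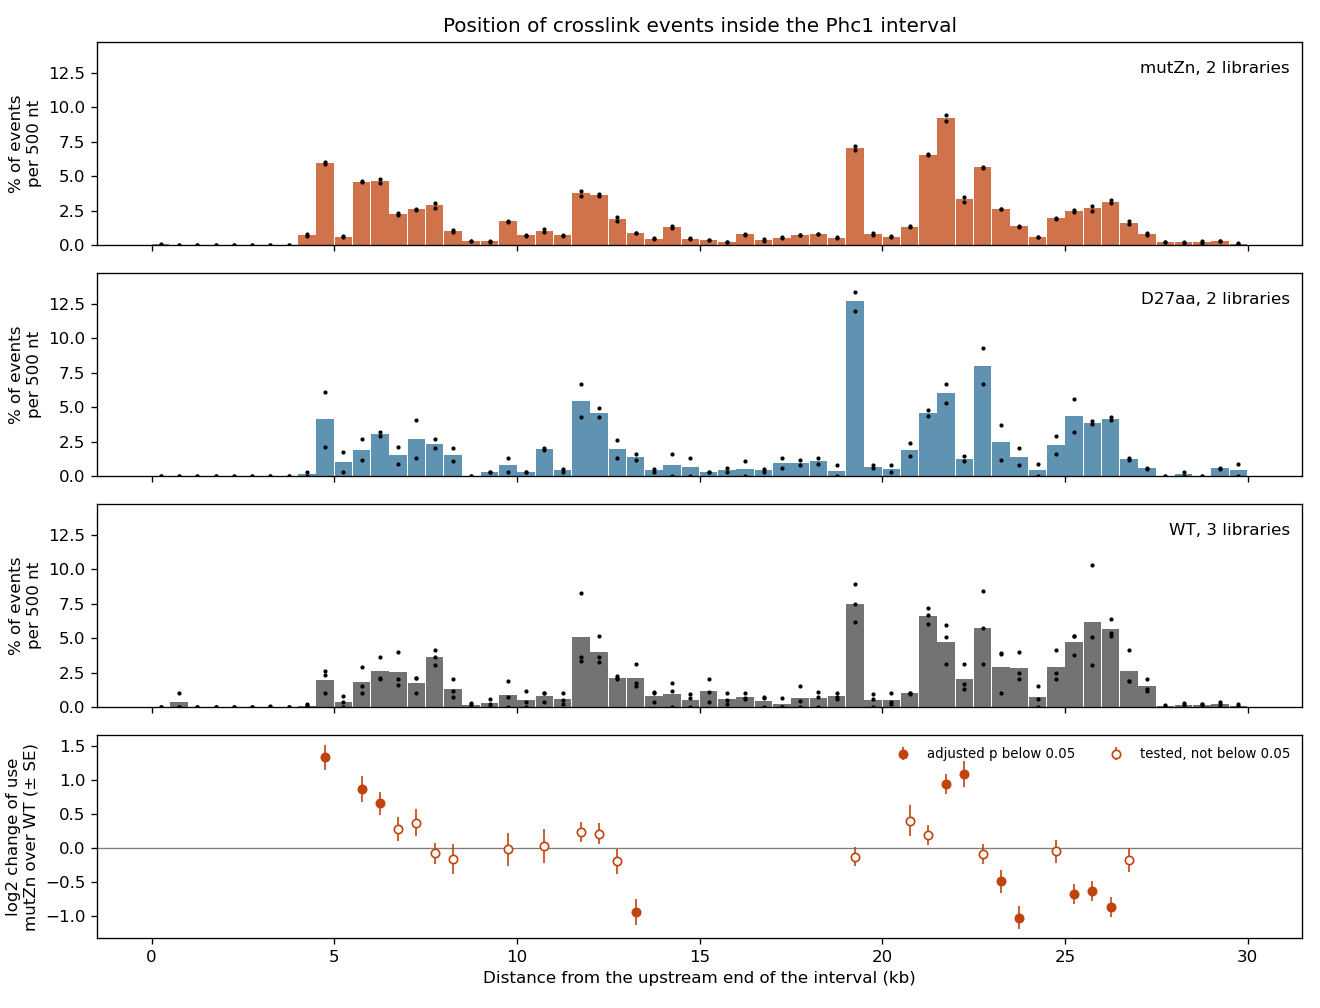
The upper panels give the percentage of Phc1 events in each 500-nt bin for mutZn, D27aa and WT against the distance from the upstream end in kb, with bars for means and dots for libraries. The lowest panel gives the log2 change of bin use for mutZn over WT with its SE, filled where the adjusted p was below 0.05. Filled points lie above 0 near 5 kb and below 0 between 25 and 26.5 kb.

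Dnmt3b is the longest of the genes. Its most significant change was at chr2:153487001-153487500, which fell by 0.96 ± 0.14 (SE; limma adjusted p = 1.55e-07). This bin held 6.06% and 5.40% of events in tested bins in mutZn 3 and 4, 6.15% and 9.95% in D27aa 1 and 2, and 6.58%, 11.7% and 10.2% in WT 2, 3 and 4. WT 2 was near mutZn there, apart from WT 3 and WT 4. Each of the other named bins had a WT mean under the filter of 9.10 CPM, so their tests are given no weight. The bin chr2:153502001-153502500 averaged 27.4 CPM in mutZn, 6.64 CPM in D27aa and 7.65 CPM in WT, and it entered the test only through mutZn. The bin chr2:153477001-153477500 averaged 20.03 CPM in mutZn, 13.2 CPM in D27aa and 4.27 CPM in WT, and its call was lost in 7 of 10 alternatives, among them leaving out mutZn 3, mutZn 4 or WT 4.

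In all 3 groups the strongest bin of Dnmt3b was the same, 18.5 kb from the upstream end, with 7.05% of the gene's events in mutZn, 7.84% in D27aa and 7.32% in WT. Of the 84 bins of Dnmt3b, where Phc1 has 60, 17 held 50% of the events in mutZn, 13 in D27aa and 14 in WT. The upstream 50% of the interval held 50.2% and 50.3% of events in mutZn 3 and 4, 58.6% and 56.2% in D27aa 1 and 2, and 54.4%, 53.8% and 54.4% in WT 2, 3 and 4. Here, unlike in Phc1, mutZn lay lowest.

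**Figure D4:**
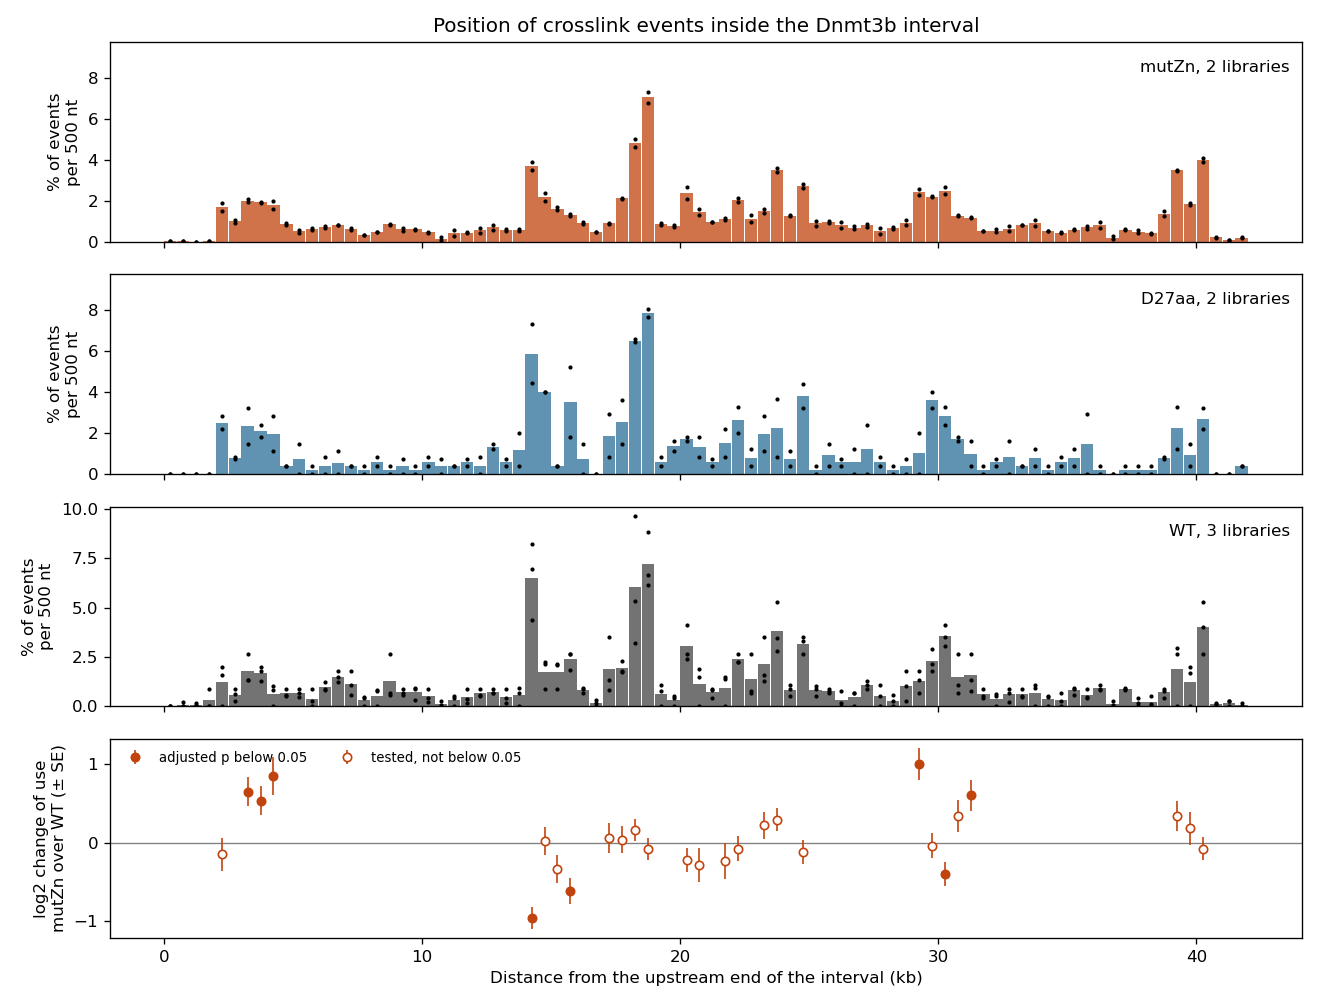
Percentage of Dnmt3b events in each 500-nt bin against the distance from the upstream end in kb for mutZn, D27aa and WT, with bars for means and dots for libraries, and, in the lowest panel, the log2 change of bin use for mutZn over WT with its SE. The same bin at 18.5 kb leads in all 3 groups, with 7.05%, 7.84% and 7.32% of events.

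The Sox2 bin past the threshold was chr3:34550001-34550500, which averaged 17.5 CPM in mutZn, 5.23 CPM in D27aa and 8.58 CPM in WT. It too entered the test only through mutZn, and no weight is given to its test. It held 18.1% and 18.7% of events in tested bins in mutZn, 8.33% and 8.70% in D27aa, and 11.1%, 15.4% and 13.2% in WT. This call was lost in 9 of 10 alternatives.

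The remaining genes had fewer events, and their upstream shares are described without a test. In Sox2, the upstream 50% of the interval held 45.6% and 42.5% of events in mutZn 3 and 4, 73.1% and 70.8% in D27aa 1 and 2, and 52.6%, 42.2% and 45.5% in WT 2, 3 and 4. D27aa stood above the other groups, on 26 and 24 events with 95% intervals (exact binomial) of 52.2% to 88.4% and 48.9% to 87.4%. In the limma fit none of the 4 tested Sox2 bins differed between D27aa and WT, and none had an unadjusted p under 0.05. The strongest bin of Sox2 was at 1 kb in D27aa and at 2.5 kb in mutZn and WT. In Pou5f1 the upstream share was 44.9% and 43.3% in mutZn, 33.3% and 34.5% in D27aa, and 20%, 39.1% and 40.5% in WT, with WT 2 at 15 events. Sall4 had most of its events downstream, with 17.8% and 19.8% in the upstream 50% in mutZn, 13.9% and 33.3% in D27aa, and 36.4%, 7.41% and 10% in WT, and the groups overlapped. Lin28a also leaned downstream, with 32.0% and 28.8% in mutZn, 34.8% and 49.1% in D27aa, and 37.5%, 32.5% and 30.9% in WT.

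The calls of mutZn against WT did not hold under every alternative. None of the 20 remained with limma trend on log2(CPM + 1), when each position was counted a single time, or with replicate number as a block, and 10 or 11 bins passed the test when 1 mutZn library was left out. Each named bin kept its direction in the 10 to 12 alternatives in which it was tested. The replicate block left little from which to estimate the spread, so the loss of calls under it cannot decide whether they hold. Counting positions a single time takes more events from deep libraries, as given above for Phc1. The part of depth in the loss of calls under that setting was not tested.

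D27aa did not differ from WT in any of the 65 bins in the limma fit, and 6 bins had an unadjusted p under 0.05. Over all regions, 1.19% of bins differed, and 6.55% had an unadjusted p under 0.05. The depth of D27aa limits this comparison: its 2 libraries held 734 and 797 events in the 7 genes, against 274, 1703 and 6352 in the WT libraries.

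mutZn and D27aa differed in 4 of the 65 bins, all in Phc1, while 2.11% of bins differed over all regions (8.68% at an unadjusted p under 0.05). Use was higher in mutZn at chr6:122290001-122290500 (log2 change 0.99 ± 0.25, limma adjusted p = 0.00983) and at chr6:122273001-122273500 (0.93 ± 0.18, limma adjusted p = 2.97e-04). It was also higher at chr6:122273501-122274000 (0.78 ± 0.20, limma adjusted p = 0.00983). These calls held in 2, 4 and 1 of 11 alternatives. At the first bin D27aa 1 had 6.84% of events in tested bins, near both mutZn libraries, and D27aa 2 had 2.48%. With 1 library left out the change there was 0.29 to 1.72. The remaining bin, chr6:122275501-122276000, fell by 0.72 ± 0.16 (limma adjusted p = 0.00198), and was named after its values were seen. It is the bin with the highest share of Phc1 events in D27aa, with 14.98% and 13.9% of those in tested bins in D27aa 1 and 2, against 8.37% and 8.05% in mutZn 3 and 4. No bin passed the test when either mutZn library was left out, and 2 did without either D27aa library.

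The authors' peaks gave another view of the same genes. Peaks are single positions in lists that the authors made from scores summed over replicates, so they have no replicate spread, and lists of different depth cannot be ranked. In the 7 intervals there were 7995 peaks in the mutZn list, 108 in the D27aa list and 3674 in the WT list, whose header names 4 library numbers where 3 WT libraries were analysed here. These were 0.356%, 0.311% and 0.180% of the 2246120, 34759 and 2045481 peaks of the lists. Phc1 had 3278 peaks in mutZn, 58 in D27aa and 1312 in WT, and Dnmt3b had 3270, 32 and 1650. Pou5f1 had 229 peaks in mutZn, 10 in D27aa and 307 in WT. Sall4 had 467 peaks in mutZn, none in D27aa and 9 in WT, and Nanog had 29, none and 1.

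Of the peaks in these genes, 2224 were at the same nucleotide in the mutZn and WT lists, which is 27.8% of the mutZn peaks and 60.5% of the WT peaks. The D27aa and WT lists shared 82, or 75.9% of the D27aa peaks and 2.23% of the WT peaks. Over the whole lists, the shares were 21.9% of mutZn peaks and 24.1% of WT peaks for the first pair, and 54.8% of D27aa peaks and 0.931% of WT peaks for the second. Of the 108 D27aa peaks in these genes, 60 were in all 3 lists. These were 34 of the 58 in Phc1, 23 of the 32 in Dnmt3b and a few in Sox2 and Pou5f1. The share in all 3 was not computed over the whole lists. The leading nucleotides were carried by few events each. The highest mean over the UV anti-GFP libraries in Phc1, at position 122275935 of chromosome 6, had 24 and 8 events in mutZn 3 and 4, 3 and 6 in D27aa 1 and 2, and 0, 1 and 0 in WT 2, 3 and 4. At the depth of the libraries these were means of 1.64 CPM in mutZn, 11.7 CPM in D27aa and 0.303 CPM in WT. In Dnmt3b the leading nucleotide was position 153491734 of chromosome 2, inside its strongest bin, with 32 and 21 events in mutZn, 3 and 2 in D27aa, and 1, 0 and 5 in WT. Its means were 2.99 CPM in mutZn, 6.56 CPM in D27aa and 1.93 CPM in WT.

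How often libraries met on the same nucleotide was measured as a recurrence, the number of event pairs from both libraries on the same nucleotide over the mean number 10 to 50 nt apart. A value of 1 means that single nucleotides are shared no more than their surroundings. Over the 7 genes, the 6 pairs among mutZn 3, mutZn 4, WT 3 and WT 4 had recurrences of 2.60 to 2.73. The 3 pairs among D27aa 1, D27aa 2 and WT 2 had 3.59 to 5.97, and the 12 pairs between these sets had 1.88 to 2.77. WT 2 thus shared single nucleotides more with D27aa than with the other WT libraries, although the D27aa pairs rested on few coincidences, 118 between D27aa 1 and D27aa 2 and 20 between D27aa 1 and WT 2.

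Of the anti-SRSF7 libraries, the 2 with the most events in these genes are described. endo_WT had recurrences of 6.48 to 7.29 with D27aa 1, D27aa 2 and WT 2, and of 2.20 to 2.60 with mutZn 3, mutZn 4, WT 3 and WT 4. GFP_OE 4, made with the same antibody as endo_WT from cells labelled like those of WT, had 4.49 to 5.22 and 2.04 to 2.47. The shallower libraries did not all divide this way: endo_OE 4 had no coincidence with WT 2, 1.39 with D27aa 2 (2 coincidences) and 2.81 with WT 4 (27 coincidences). Outside these genes, 48773 windows at the same range of level were used. There, pairs among D27aa 1, D27aa 2 and WT 2 had 24.1 to 44.2 and stood apart. Pairs among mutZn 3, mutZn 4, WT 3 and WT 4 had 4.74 to 7.22, which overlapped the 3.72 to 7.18 of pairs between the sets. Sets of libraries were formed here from the data and do not follow the groups. WT 3, WT 4, mutZn 4 and D27aa 2 share a run, and D27aa 1 and WT 2 share a different run. endo_WT and GFP_OE 4 share 1 more. The sets do follow depth. mutZn 3, mutZn 4, WT 3 and WT 4 held 1099389 to 11782376 events. D27aa 1, D27aa 2, WT 2, endo_WT and GFP_OE 4 held 211496 to 471705. The parts of depth and of run in the recurrence were not tested.

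**Figure D5:**
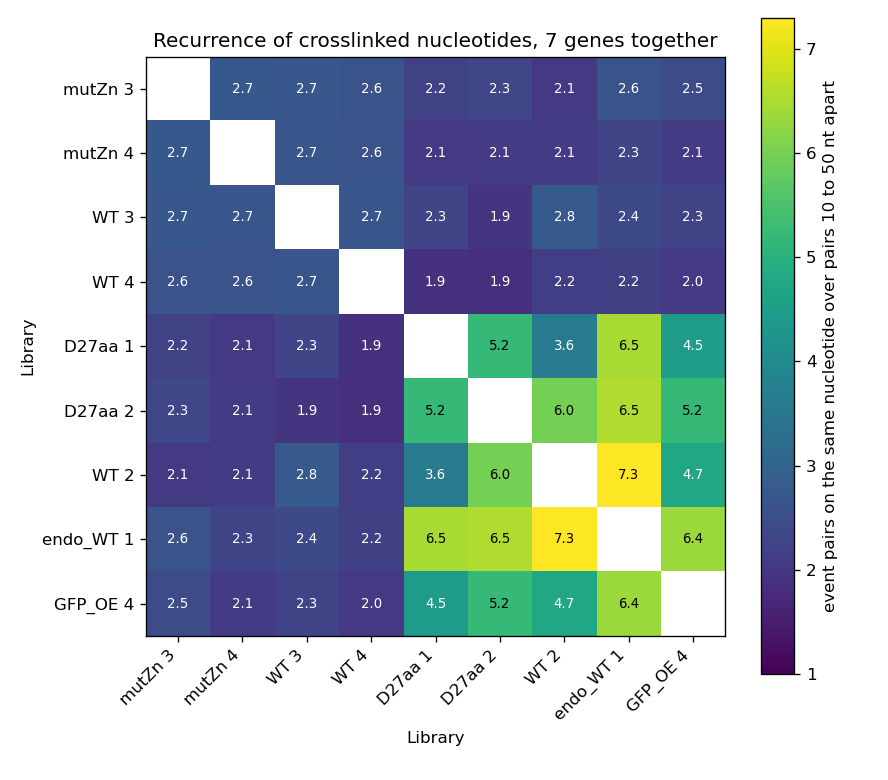
Recurrence of crosslinked nucleotides in the 7 genes for pairs of UV libraries, written in each cell and coloured on a scale from 1. Pairs among mutZn 3, mutZn 4, WT 3 and WT 4 lie between 2.60 and 2.73, and endo_WT reaches 7.29 with WT 2.

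Libraries made without UV gave these genes much the same share of their events. The 7 genes had 2671 CPM in the mutZn library without UV, 2119 CPM in that of D27aa and 1708 CPM in that of WT, or 0.920, 1.06 and 1.17 times the UV mean of the same label. These rested on 178, 74 and 152 events. Phc1 had 960.3 CPM (95% Poisson interval 739.6 to 1226) in mutZn without UV, 744.6 (486.4 to 1091) in D27aa without UV and 550.6 (407.3 to 727.9) in WT without UV, an order like that of the UV libraries. Nanog had no event without UV, and 3 events there would be 45.02 CPM in mutZn, 85.9 in D27aa and 33.7 in WT, above its UV level. On single nucleotides, the mutZn library without UV had recurrences of 1.28 and 1.51 with mutZn 3 and 4, which had 2.73 with each other. The WT library without UV had 7.76, 3.03 and 2.41 with WT 2, 3 and 4, on 7, 21 and 63 coincidences, where WT 3 and WT 4 had 2.68 with each other. The D27aa library without UV had 1.08 and 1.02 with D27aa 1 and 2, on 2 coincidences each. Where the events without UV came from was not tested. All intervals in the text cover counting error only.

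With the anti-SRSF7 antibody, endogenous SRSF7 could be compared between cells with and without the tagged protein, though depth was low. Phc1 had 448.4 and 383.1 CPM in endo_OE 4 and 5, from cells that overexpress SRSF7-GFP, against 1102 CPM in endo_WT, on 15, 32 and 233 events. Sall4 had no event and 2 events in endo_OE 4 and 5, against 19 events in endo_WT (89.9 CPM). Dnmt3b had 358.7 and 502.8 CPM in endo_OE, against 723.9 CPM in endo_WT, and Pou5f1 had 149.5 and 71.8 CPM, against 71.0 CPM. For Phc1 the level in endo_WT was 2.65 times the endo_OE mean. Of 1135 windows of 5000 nt with enough events, 20% lay this way, with endo_WT above both endo_OE libraries and 2-fold or more over their mean, and 12.6% lay the opposite way. With windows of 20000 nt these shares were 17.2% and 5.93%. endo_WT is 1 library, so this difference has no replicate check on its side.

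For Phc1 and Sall4, the other products of the same cells had levels like endo_OE. Phc1 had 434.2 and 415.8 CPM in GFP_OE 3 and 4 and 450.8 and 442.3 CPM in RRM_OE 3 and 4. Sall4 had 15.8 and 23.3 CPM in GFP_OE and no event in RRM_OE, whose libraries held 16 and 56 events in all 7 genes. Lin28a varied more, with 39.5 and 140.0 CPM in GFP_OE 3 and 4 and 56.4 and 186.2 CPM in RRM_OE 3 and 4. In endo_OE 4 and 5 it had 29.9 and 83.8 CPM, on 1 and 7 events.

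In the piCLIP libraries the genes were barely covered. The 7 genes together had 21 and 18 events in poly_IP 1 and 2 and 31 and 7 events in mono_IP 1 and 2, against 2 and 0 events in the libraries of the same fractions titled IgG. The labels of these name anti-EGFP as the antibody, and they held 11177 and 1153 events in all. Dnmt3b had 5 and 10 events in poly_IP and 3 and 1 in mono_IP, or 216.6 and 545.9 CPM against 57.3 and 31.3 CPM. Pou5f1 had 2 and 6 events in poly_IP and 2 and 1 in mono_IP, or 86.6 and 327.5 CPM against 38.2 and 31.3 CPM. For both genes the poly_IP libraries lay above the mono_IP libraries, but the 95% Poisson intervals of poly_IP 1 (70.3 to 505.5 CPM for Dnmt3b, 10.5 to 313.0 for Pou5f1) overlapped those of both mono_IP libraries. In poly_IP 2 the interval of Pou5f1 (120.2 to 712.9 CPM) overlapped them too. That of Dnmt3b in poly_IP 2 (261.8 to 1004 CPM) did not, with its 10 events on 5 positions. Lin28a had 5 and 0 events in poly_IP and 13 and 0 in mono_IP, so that the 2 libraries of each fraction did not agree. The libraries of the anti-SRSF7 series without UV and without antibody had 5 and 3 events in the 7 genes.

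For each gene, the window of 5000 nt elsewhere in the genome with the most similar pattern over the 14 UV iCLIP libraries of both antibodies was found among 22704 windows, by the Pearson correlation of log2(CPM + 1). The libraries share groups, and the best of many windows is high by selection, so the values are given without a test. Sox2 had its closest window at chr11:70455001-70460000 on the minus strand (r = 0.99), Sall4 at chr6:97540001-97545000 on the minus strand (r = 0.98) and Dnmt3b at chr6:97460001-97465000 on the minus strand (r = 0.87). Phc1 had its closest window at chr15:75730001-75735000 on the minus strand (r = 0.95) and Nanog at chr11:78350001-78355000 on the plus strand (r = 0.97). For Pou5f1 it was chr5:44900001-44905000 on the minus strand (r = 0.91) and for Lin28a chr1:130170001-130175000 on the plus strand (r = 0.93). The median correlation over all windows was 0.02 for Pou5f1, the lowest, and 0.41 for Sox2, the highest.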

How the data were processed

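The deposited library files give 1 signed score per crosslinked nucleotide, which per the file headers is the cDNA count at that position on mm9 (annotation Ensembl 59), with the minus sign for the minus strand. CASAVA 1.4 was used, per the submitters' processing notes; for the aligner and for duplicate removal, nothing is stated in these sources. Peak lists were deposited with scores summed over replicates, per the file headers.

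Absolute scores were summed as events per gene interval, per 500-nt bin and per 5000-nt window, and scaled to 1000000 events on the standard chromosomes. A bin was tested when its mean reached 10 events at the median library total its total 15, and its region held 2 such bins. Bin use was tested with limma 3.58.1 in R 4.3.3 (voom, diffSplice, group as the term, 7 UV anti-GFP libraries in 1 fit) and adjusted with Benjamini-Hochberg. The test was tested on simulated data with known changes. Levels have no test. The members, lists and tests were chosen with earlier results of these data known.

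All 7 genes were named. For each gene and comparison, up to 3 bins past the threshold with the largest change were named, with the nucleotides of highest mean level and the most similar window. The recurrence of nucleotides, the runs of bins, the upstream shares of intervals and the windows of 20000 nt were added after the data had been examined. Other pluripotency genes and markers of other lineages had been listed, but no positions on mm9 were at hand for them, and they were not analysed here; no sequence is shown for the same reason. Alternatives were other bins and filters, limma trend, positions counted a single time, other scalings, replicate or run as a block, and each library left out.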

Additional observations from a re-analysis of the deposited data

How the results depend on the processing

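Of 38 recalculated counts of differing bins in the 7 genes, 19 stayed within 1.5 times the count in the report. For mutZn against WT, where 20 bins differed, the count was 9 with a mean of 20 events required, 4 with no filter on the mean, and 0 with limma trend or with each position counted a single time. Leaving out 1 library gave 10 to 20. For mutZn against D27aa, where 4 differed, it was 0 with no filter on the mean, with limma trend and with each position counted a single time, 1 with sequencing run as a block, and 0 to 2 with 1 library left out. For D27aa against WT, where 0 differed in limma (6 at an unadjusted p under 0.05), it was 1 with run as a block and 0 to 1 with 1 library left out. Over all regions the 1065 bins of mutZn against WT became 244 with 20 events required, 157 with no filter on the mean, 23 with positions counted a single time and 0 with limma trend; this last setting gave 47 bins for mutZn against D27aa, where 96 differed. With run as a block the counts over all regions were 612 for mutZn against WT, 96 for D27aa against WT (54 in the report's fit) and 39 for mutZn against D27aa. With 1 library left out they were 288 to 1037, 8 to 131 and 36 to 75. The cause was not tested.

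Replicate numbers of the titles were shared by some libraries. Deviations of same-numbered libraries over 26471 windows correlated at 0.02 for WT 3 with mutZn 3 and -0.05 for WT 4 with mutZn 4. For WT 2 with D27aa 2 the correlation was -0.02. Counting error lowers such correlations, and in mutZn and D27aa, with 2 libraries each, the deviations mirror each other. Values this small therefore cannot show whether the numbers pair libraries. Replicate numbers of the headers follow the runs in the 7 UV anti-GFP libraries, so run as a block covers them. With a replicate block 0 bins differed for mutZn against WT and 0 for mutZn against D27aa, in the 7 genes and over all regions. mutZn and D27aa share no replicate number, so that fit compares them only through WT, and D27aa 1 is alone under its number. The block left little from which to estimate the spread, so its counts of 0 cannot decide whether the calls hold. In that fit the change at Phc1 chr6:122273001-122273500 for mutZn over D27aa was -0.0012, against 0.93. WT 2, through which D27aa 2 is linked, had 3 events in this bin.

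The log2 ratio of the 7 genes together was 0.99 for mutZn over WT, 0.54 with positions counted a single time and 1.29 with trimmed-mean scaling, and 0.54 for mutZn over D27aa, 0.043 and 1.03 under the same settings. Reversed levels were Pou5f1 for mutZn over D27aa (0.10 with trimmed-mean scaling) and Phc1 for mutZn over D27aa (-0.27 with positions counted a single time). Positions counted a single time take more events from deep libraries, and the part of depth in these values was not tested. Few events limit Nanog, the anti-SRSF7 products and the piCLIP fractions.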
